A study of Mus musculus with 10 samples.

Results

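Proteins of the red cell membrane were followed at the RNA level in sorted mouse bone-marrow progenitors with and without the transcription factor Runx1. The 9 genes were those of the deposited table with the symbols Slc4a1, Epb4.2, Ank1, Gypc, Rhag, Rhd, Kel, Ermap and Aqp1, out of 23240 genes in the table. Progenitors came from mice with floxed Runx1 alleles and the vav-Cre transgene, Runx1fl/fl-Tg(vav-Cre), called Runx1-deleted here, and from Runx1+/+-Tg(vav-Cre) mice, called wild type here. The wild-type mice thus carried the same transgene, whose promoter is active across blood cells, so that deletion was not specific to the sorted gates. All gates were lin- sca- kit+ CD41- CD105- and differed in CD16/32 and CD150. XMP (CD16/32+ CD150+) were sorted from Runx1-deleted marrow alone, MEP (megakaryocyte-erythroid progenitors, CD16/32- CD150+) and GMP (granulocyte-macrophage progenitors, CD16/32+ CD150-) from both genotypes, with 2 libraries in each of the 5 groups. The sources used here give no age for the mice.

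The red cell membrane is a lipid bilayer held in shape by a spectrin network. Band 3 (Slc4a1), the anion exchanger, is tied to that network through ankyrin (Ank1) and protein 4.2 (Epb4.2), and glycophorin C (Gypc) is tied to it through protein 4.1. The Rh-associated glycoprotein (Rhag) and the Rh protein (Rhd) form a complex in the same membrane, while Kell (Kel), Ermap and the water channel Aqp1 carry blood group antigens on human red cells. Most of these proteins accumulate late, in maturing erythroblasts, whereas the sorted cells were progenitors. Runx1 is required for blood stem cell emergence and acts in megakaryocyte and myeloid differentiation. The comparisons address which genes differ with Runx1 in GMP and MEP, and how the XMP of Runx1-deleted marrow relate to these gates.

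Levels were deposited as RPKM, reads scaled by gene length and library total, which allows genes to be compared per length. The read totals behind the values were 20.8 to 54.9 M per library, and 75.3% to 83.3% of them lay in genes. Runx1 itself stood at 85.9 and 78.5 RPKM in XMP, at 41.5 and 36.8 RPKM in Runx1-deleted MEP, against 17.2 and 25.5 RPKM in wild-type MEP, and at 63.0 and 72.3 RPKM in Runx1-deleted GMP, against 28.5 and 26.8 RPKM in wild-type GMP. A value over the whole gene does not show whether the floxed part is missing, so it does not check the genotype labels. The 7 GMP markers (Mpo, Elane, Prtn3, Ctsg, Cebpa, Csf1r and Fcgr3) summed to 132 to 167 RPKM in XMP, to 31.1 to 33.5 RPKM in Runx1-deleted MEP, against 39.2 to 52.0 RPKM in wild-type MEP, and to 7660 to 8020 RPKM in Runx1-deleted GMP, against 11700 to 11900 RPKM in wild-type GMP. The 5 MEP markers (Gata1, Klf1, Epor, Itga2b and Slamf1) summed to 845 to 850 RPKM in XMP, to 477 to 537 RPKM in Runx1-deleted MEP, against 377 to 401 RPKM in wild-type MEP, and to 86.9 to 95.1 RPKM in Runx1-deleted GMP, against 40.1 to 52.1 RPKM in wild-type GMP. Slamf1 and Fcgr3 encode antigens that defined the gates, so the sort itself set part of these sums. Itga2b encodes an antigen for which every gate was sorted as negative. In both genotypes all 7 GMP markers were called lower and all 5 MEP markers higher in MEP than in GMP, by the test used below. The GMP and MEP gates thus also differed in markers that were not sorted on. For Slamf1 and Fcgr3 the difference is no independent check of the gates. The MEP marker sum of XMP was mostly Itga2b, at 652 and 682 RPKM, beside 218 and 203 RPKM in Runx1-deleted MEP. Means of Klf1 (29.3 RPKM) and Epor (6.15 RPKM) in XMP were below those in Runx1-deleted MEP (132 RPKM and 13.2 RPKM). In the test described below, 1 of the 5 MEP markers was called higher and 2 lower in XMP than in Runx1-deleted MEP. The higher sum in XMP therefore does not describe the 5 markers as a set. Sequencing lane coincided with genotype in GMP, where both Runx1-deleted libraries ran on lane 5 and the wild-type ones on lanes 3 and 2, so that lane and genotype cannot be told apart there. In wild-type MEP replicate 1, on lane 3, log2 levels of long against short genes stood at -0.86 relative to the mean of the libraries, beside -0.34 to 0.46 in the other 9.

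Promoter sequences from RefSeq (GRCm38.p6) were used for 6 of the 9 genes, Epb4.2, Rhag, Rhd, Kel, Ermap and Aqp1. Each sequence runs from 250 bases before the start of the gene to 50 bases after it, a window of 300 bases. Words of the type bound by GATA factors, which drive erythroid genes, were searched on both strands. They were AGATAA and the related word AGATAG, together with TGATAA and its related word TGATAG. A word was found in 5 of the 6 windows, beside 29.8% of all 32851 promoters of that length. The promoters of Rhag (chr17:40810899-40811148, plus strand), Rhd (chr4:134864286-134864535, plus strand), Ermap (chr4:119189996-119190245, minus strand) and Kel (chr6:41704326-41704575, minus strand) are shown because each held its word within 67 bases of the start, while the RNA of the first 3 passed the test for Runx1 deletion in MEP and that of Kel did not. The 250 bases before the start are given, 5′ to 3′ on the strand of the gene, and capitals mark the GATA-type words, which are reversed and complemented (TTATCA) where the word lies on the opposite strand.
Rhag promoter: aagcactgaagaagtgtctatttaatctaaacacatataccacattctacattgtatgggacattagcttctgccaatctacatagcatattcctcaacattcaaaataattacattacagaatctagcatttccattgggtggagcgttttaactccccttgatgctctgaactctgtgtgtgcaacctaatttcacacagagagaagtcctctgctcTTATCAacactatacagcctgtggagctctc
Rhd promoter: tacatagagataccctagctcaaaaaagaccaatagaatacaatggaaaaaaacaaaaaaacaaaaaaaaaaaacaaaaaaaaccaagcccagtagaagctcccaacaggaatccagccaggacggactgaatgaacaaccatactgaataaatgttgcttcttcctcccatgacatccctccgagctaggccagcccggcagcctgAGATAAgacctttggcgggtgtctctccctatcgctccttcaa
Ermap promoter: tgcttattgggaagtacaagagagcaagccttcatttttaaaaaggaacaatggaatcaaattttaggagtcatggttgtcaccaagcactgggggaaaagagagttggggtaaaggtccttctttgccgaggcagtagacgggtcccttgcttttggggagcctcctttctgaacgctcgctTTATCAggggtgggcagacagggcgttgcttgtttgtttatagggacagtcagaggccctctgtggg
Kel promoter: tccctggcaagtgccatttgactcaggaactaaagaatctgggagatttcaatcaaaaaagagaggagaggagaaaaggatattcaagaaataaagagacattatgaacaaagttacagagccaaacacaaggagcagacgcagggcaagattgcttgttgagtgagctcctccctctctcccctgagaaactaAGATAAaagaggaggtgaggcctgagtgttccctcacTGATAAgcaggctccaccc
Kel was the only one of the 6 with more than 1 such word, at 56 and 19 bases before the start. In Rhag, Rhd and Ermap the word began 31, 43 and 67 bases before the start, and in Epb4.2 226 bases before it. Aqp1, whose window was the richest in G and C (62.7%, against 40.7% to 48.7% in the other 5), held none. RUNX-type words, searched on both strands as TGTGGT and the related word TGCGGT, lay in the windows of Rhag, 212 bases before the start, and Aqp1, 38 bases into the gene, beside 22.4% of all promoters. The word CCACCC, of the type bound by Klf1, was found on either strand in 4 of the 6 windows (Rhag, Kel, Ermap and Aqp1), beside 31.5% of all promoters.

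The 9 genes spanned a wide range of levels and followed different orders across the groups (plot of RPKM by group). Aqp1 was the most abundant per length. It reached 272 and 209 RPKM in XMP, 624 and 601 RPKM in Runx1-deleted MEP, against 286 and 307 RPKM in wild-type MEP, and 5.71 and 10.02 RPKM in Runx1-deleted GMP, against 3.01 and 4.61 RPKM in wild-type GMP. In order of level (Runx1-deleted MEP, wild-type MEP, XMP, Runx1-deleted GMP, wild-type GMP) no neighbouring groups overlapped. Aqp1 made up 72.2% to 86.1% of the summed RPKM of the 9 genes in XMP and MEP, and 10.3% to 33.1% in GMP, where Gypc held the larger share (48.9% to 82.2%). Aqp1 is also made by endothelial cells. Of 6 endothelial markers Cdh5 and Stab2 stayed at or under 0.14 RPKM in every library, but Kdr, Tie1, Plvap and Emcn did not. Kdr averaged 21.5 RPKM in XMP, 7 RPKM in Runx1-deleted MEP and 1.35 RPKM in wild-type MEP, and Plvap 6.74 RPKM in XMP, 14.1 RPKM in Runx1-deleted MEP and 6.33 RPKM in wild-type MEP. The summed level of the 6 was 55.3 to 68.9 RPKM in XMP, 32.1 to 37.5 RPKM in Runx1-deleted MEP, 23.3 to 26.6 RPKM in wild-type MEP, 16.7 to 18.9 RPKM in Runx1-deleted GMP and 10.6 to 13.8 RPKM in wild-type GMP.

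Ermap, an immunoglobulin-superfamily protein of erythroid cells, was second to Aqp1 in Runx1-deleted MEP, while in the other 4 groups the mean of Gypc was above that of Ermap. Its levels were 8.36 and 4.48 RPKM in XMP, 99.1 and 114 RPKM in Runx1-deleted MEP, against 22.4 and 39.2 RPKM in wild-type MEP, and 0.384 and 0.953 RPKM in Runx1-deleted GMP, against 0.281 and 0.453 RPKM in wild-type GMP. The order ran from Runx1-deleted MEP over wild-type MEP to XMP with gaps, and the GMP groups overlapped. Kel, a membrane metalloprotease, stood at 1.28 and 1.43 RPKM in XMP, at 11.5 and 14.7 RPKM in Runx1-deleted MEP, against 10.8 and 13.7 RPKM in wild-type MEP, and at 0.261 and 0.310 RPKM in Runx1-deleted GMP, against 1.46 and 0.934 RPKM in wild-type GMP. Its MEP groups overlapped, as did XMP and wild-type GMP, and Runx1-deleted GMP lay lowest.

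The Rh genes shared an order. Rhag, which channels ammonia, stood at 4.46 and 2.92 RPKM in XMP, at 32.5 and 28.2 RPKM in Runx1-deleted MEP, against 4.02 and 5.52 RPKM in wild-type MEP, and at 0.417 and 0.608 RPKM in Runx1-deleted GMP, against 0.0433 and 0.124 RPKM in wild-type GMP. The wild-type GMP values rest on 4 and 6 reads. Rhd had 4.56 and 1.15 RPKM in XMP, 48.6 and 30.02 RPKM in Runx1-deleted MEP, against 9.29 and 10.7 RPKM in wild-type MEP, and 0.613 and 1.05 RPKM in Runx1-deleted GMP, against 0.199 and 0.222 RPKM in wild-type GMP. Runx1-deleted MEP were highest for both genes, and XMP overlapped wild-type MEP for Rhag but lay below them for Rhd. The ratio of Rhd to Rhag (RPKM) was 1.02 and 0.394 in XMP, 1.5 and 1.07 in Runx1-deleted MEP, against 2.31 and 1.93 in wild-type MEP, and 1.47 and 1.72 in Runx1-deleted GMP, against 4.59 and 1.78 in wild-type GMP. In MEP both Runx1-deleted libraries lay below both wild-type ones, a description with no test. In GMP the same order rested on 1.72 against 1.78. The wild-type GMP ratios come from 12 and 7 reads of Rhd over 4 and 6 of Rhag, too few to order the genotypes there.

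The band 3 complex did not move as a unit. Slc4a1 had 4.50 and 4.18 RPKM in XMP (856 and 829 reads), 0.865 and 1.0 RPKM in Runx1-deleted MEP, against 0.0604 and 0.324 RPKM in wild-type MEP, and 2.07 and 1.82 RPKM in Runx1-deleted GMP, against 0.0717 and 0.0527 RPKM in wild-type GMP (13 and 5 reads). It was thus highest in XMP and second in Runx1-deleted GMP, and only the wild-type groups overlapped. Its partner Epb4.2 had 0.977 and 0.872 RPKM in XMP, 2.38 and 2.73 RPKM in Runx1-deleted MEP, against 0.396 and 0.495 RPKM in wild-type MEP, and 0.262 and 0.306 RPKM in Runx1-deleted GMP, against 0.0434 and 0 RPKM in wild-type GMP. The 0 rests on 0 reads, and 3 reads would have given 0.0415 RPKM in that library. No neighbouring groups of Epb4.2 overlapped, and Runx1-deleted MEP were highest. The ratio of Slc4a1 to Epb4.2 (RPKM) was 4.6 and 4.79 in XMP, 0.364 and 0.367 in Runx1-deleted MEP, against 0.153 and 0.655 in wild-type MEP, and 7.91 and 5.95 in Runx1-deleted GMP. XMP and Runx1-deleted GMP thus held more Slc4a1 than Epb4.2 per length, and the 4 MEP libraries held less.

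Ank1, which links band 3 to spectrin, resembled the Rh genes. It had 1.88 and 0.889 RPKM in XMP, 19.0 and 10.6 RPKM in Runx1-deleted MEP, against 2.58 and 4.88 RPKM in wild-type MEP, and 0.209 and 0.408 RPKM in Runx1-deleted GMP, against 0.128 and 0.167 RPKM in wild-type GMP, with no overlap between neighbouring groups. The antisense gene Gm15816 overlaps exons of Ank1 in the GENCODE annotation, and where counting did not use strand its reads cannot be told apart from those of Ank1. Gypc was the flattest of the 9. It had 26.8 and 17.9 RPKM in XMP, 25.9 and 20.8 RPKM in Runx1-deleted MEP, against 34.5 and 29.8 RPKM in wild-type MEP, and 12.8 and 14.8 RPKM in Runx1-deleted GMP, against 24.1 and 20.4 RPKM in wild-type GMP. XMP, Runx1-deleted MEP and wild-type GMP overlapped, wild-type MEP lay above them and Runx1-deleted GMP below.

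**Figure D1:**
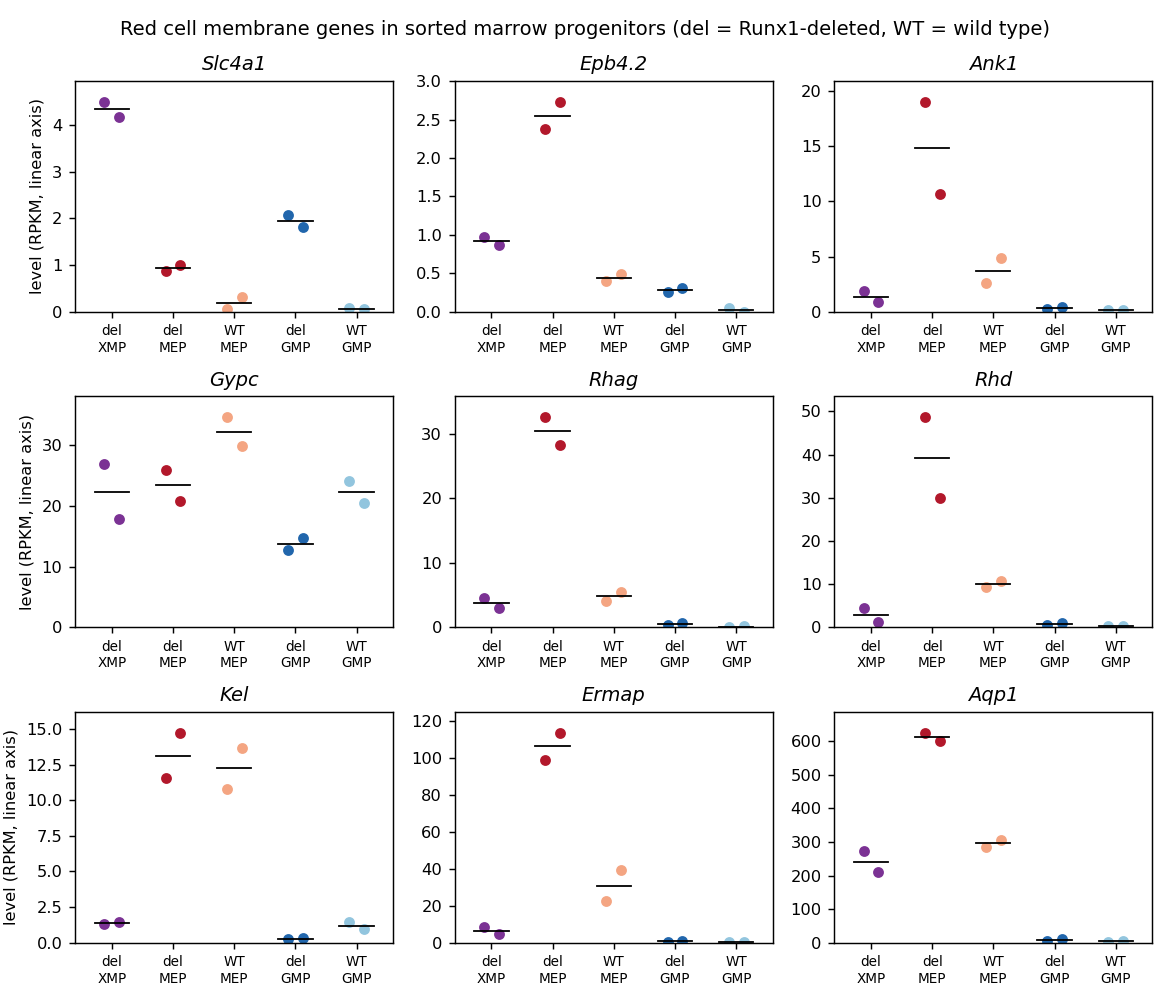
RPKM (linear axis starting at 0, a scale of its own for each gene) of the 9 red cell membrane genes in XMP, Runx1-deleted and wild-type MEP, and Runx1-deleted and wild-type GMP; points are the 2 libraries of a group and bars their mean. Runx1-deleted MEP are highest for 7 genes with values apart from the next group in 6 (Kel overlaps wild-type MEP), Slc4a1 is highest in XMP at 4.50 and 4.18 RPKM, and Gypc in wild-type MEP at 34.5 and 29.8 RPKM. How many of all genes are apart in this way was not counted.

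In MEP, 7 of the 9 genes were higher in Runx1-deleted than in wild-type cells, none was called lower, and Kel and Gypc did not pass the test (limma on log2(RPKM + 1), Benjamini-Hochberg adjusted p under 0.05). Of all 10905 genes tested, 8% (872) were called in this comparison. The median difference of the 9 genes was 1.30 on the log2 scale, beside 0.03 over all genes tested. Rhag differed most, by 2.45 ± 0.21 (log2 ± SE, adjusted p = 7.21e-05), a mean of 30.3 ± 3.04 RPKM in Runx1-deleted MEP and 4.77 ± 1.06 RPKM in wild-type MEP (SD, n = 2 each), or 6.36-fold. Rhd followed with 1.84 ± 0.37 (adjusted p = 0.0125), Ermap with 1.81 ± 0.31 (adjusted p = 0.00489) and Ank1 with 1.73 ± 0.30 (adjusted p = 0.00549). On the RPKM scale these were 3.94-fold, 3.46-fold and 3.97-fold higher means. Fewer cells of a type and less RNA per cell cannot be told apart in such sorted pools. The labels do not state that libraries of 1 group were taken from different mice. All p-values therefore describe the spread among these libraries, which may be technical.

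Epb4.2 was higher by 1.30 ± 0.13 (adjusted p = 1.73e-04), although its level was low, and its mean RPKM was 5.73-fold higher. It reached the 1 RPKM of the filter only in Runx1-deleted MEP, and so was tested only through the group in which it was called higher. Aqp1, from a far higher base, was higher by 1.04 ± 0.25 (adjusted p = 0.0278), a 2.07-fold mean. Slc4a1 was higher by 0.71 ± 0.16 (adjusted p = 0.0187). A log2(RPKM + 1) difference understates the change of low genes, and the mean RPKM of Slc4a1 was 4.85-fold higher. Kel differed by 0.09 ± 0.20 (95% interval -0.34 to 0.53, adjusted p = 0.806). Gypc differed by -0.45 ± 0.22 (95% interval -0.92 to 0.03, adjusted p = 0.255), with both Runx1-deleted libraries below both wild-type ones. Markers of other cells moved beside these genes in MEP. Of 5 maturing red cell markers (globin genes and Alas2) 2 were called higher, with sums of 322 to 377 RPKM in Runx1-deleted MEP and 120 to 129 RPKM in wild-type MEP, and of the 4 endothelial markers tested 2 were called higher. Of 6 megakaryocyte markers 2 were called higher, although the sum of the 6 was 416 to 516 RPKM in Runx1-deleted MEP and 601 to 734 RPKM in wild-type MEP. The lower sum was mostly Pf4, which averaged 189 RPKM in Runx1-deleted MEP and 528 RPKM in wild-type MEP. Means of Gp1bb and Vwf were lower too, while those of Treml1 (125 RPKM against 35.8 RPKM), Gp5 and Gp9 were higher. Of 3 basophil and mast cell markers 2 were called lower (sums of 7.49 to 16 RPKM in Runx1-deleted MEP and 13.7 to 18.1 RPKM in wild-type MEP). Of 3 lymphocyte markers the 2 tested, Nkg7 and Cd79a, were called lower. The sum of the 3 (4.45 to 8.32 RPKM in Runx1-deleted MEP and 123 to 179 RPKM in wild-type MEP) was nearly all Nkg7, which averaged 6.1 RPKM and 150 RPKM, and 293 RPKM in wild-type GMP. Cd79a averaged 0.278 RPKM in Runx1-deleted MEP and 0.974 RPKM in wild-type MEP. Cd3e, not tested, averaged 0.00932 RPKM in Runx1-deleted MEP and 0.105 RPKM in wild-type MEP. The part of these markers in the differences was not tested.

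The calls of Rhag and Epb4.2 held in every alternative that tested them (22 and 21), although lanes 4 and 5 alone, like each fit without an MEP library, leave 1 library in an MEP group, whose spread is then assumed to equal that of the other groups. Where the filter was used, it kept Epb4.2 only through its level in Runx1-deleted MEP. The calls of the other 5 were lost with group weights, at the same differences, and with lanes 4 and 5 alone, where they were 0.55 (Slc4a1), 1.37 (Ank1), 1.75 (Rhd), 1.41 (Ermap) and 0.99 (Aqp1). Slc4a1, Ank1 and Aqp1 were also lost in a fit of only the groups compared, Rhd and Aqp1 without a filter on low values, and Aqp1 with libraries centred on their median. Single libraries also decided calls: without wild-type MEP replicate 1 the differences of Slc4a1 (0.55), Rhd (1.75) and Aqp1 (0.99) no longer passed, without Runx1-deleted MEP replicate 1 the same held for Slc4a1 (0.76), Rhd (1.5) and Aqp1 (1.02), and without Runx1-deleted MEP replicate 2 for Slc4a1 (0.65) and Aqp1 (1.07).

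In GMP, only Slc4a1 was called. It was higher in Runx1-deleted cells by 1.47 ± 0.16 on the log2 scale (adjusted p = 2.83e-04), with a mean of 1.95 ± 0.179 RPKM in Runx1-deleted GMP and 0.0622 ± 0.0134 RPKM in wild-type GMP (SD, n = 2 each), or 31.3-fold. This was 1 of 9 genes, beside 5.22% of all genes tested, and the call held in all 20 alternatives that tested it. The median of the 9 genes was 0.33, beside 0.05 over all genes. Kel was the only gene with a difference of the opposite sign near the threshold, -0.76 ± 0.20 (adjusted p = 0.0525), with means of 0.285 RPKM in Runx1-deleted GMP and 1.2 RPKM in wild-type GMP. Aqp1 differed by 0.86 ± 0.25 (adjusted p = 0.0782) and Gypc by -0.65 ± 0.22 (adjusted p = 0.113). Gypc was called lower in 4 alternatives, with the series of library numbers (25 to 29 and 30 to 34) as a block (adjusted p = 0.0324), with group weights, in a fit of only the groups compared and with the length trend removed (-0.65 to -0.66; adjusted p of 0.0324 to 0.0398). Rhag, Epb4.2, Rhd, Ermap and Ank1 differed by 0.19 to 0.59, with adjusted p of 0.177 to 0.738. The libraries of the genotypes were apart for 8 of the 9 genes, Ermap being the exception. How many of all genes were apart was not counted, and with 2 libraries a side unchanged genes can be apart too, so nothing is concluded from this. Kel passed the test in 8 of its 21 alternatives, among them those without wild-type MEP replicate 1 or replicate 2 (-0.76 in both), and with a pseudocount of 0.1 the calls were 4 (Slc4a1, Epb4.2 and Rhag higher, Kel lower).

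Markers of maturing red cells moved beside Slc4a1 in GMP. The 5 markers were the globin genes Hba-a1, Hba-a2, Hbb-b1 and Beta-s and the haem synthesis gene Alas2, and all 5 were called higher in Runx1-deleted GMP. Their summed level was 412 to 711 RPKM in Runx1-deleted GMP and 54.4 to 91.2 RPKM in wild-type GMP. It was 793 to 1590 RPKM in XMP, 322 to 377 RPKM in Runx1-deleted MEP and 120 to 129 RPKM in wild-type MEP, the same order of groups as that of Slc4a1 except that the wild-type groups of Slc4a1 overlapped. Alas2 alone stood at 8.79 and 4.71 RPKM in XMP, 2.75 and 3.99 RPKM in Runx1-deleted GMP, against 0.304 and 0.509 RPKM in wild-type GMP. The part of maturing red cells or their RNA in the level of Slc4a1 was not tested. Reads of near-identical globin genes cannot be assigned with certainty, which makes the level of each one uncertain.

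**Figure D2:**
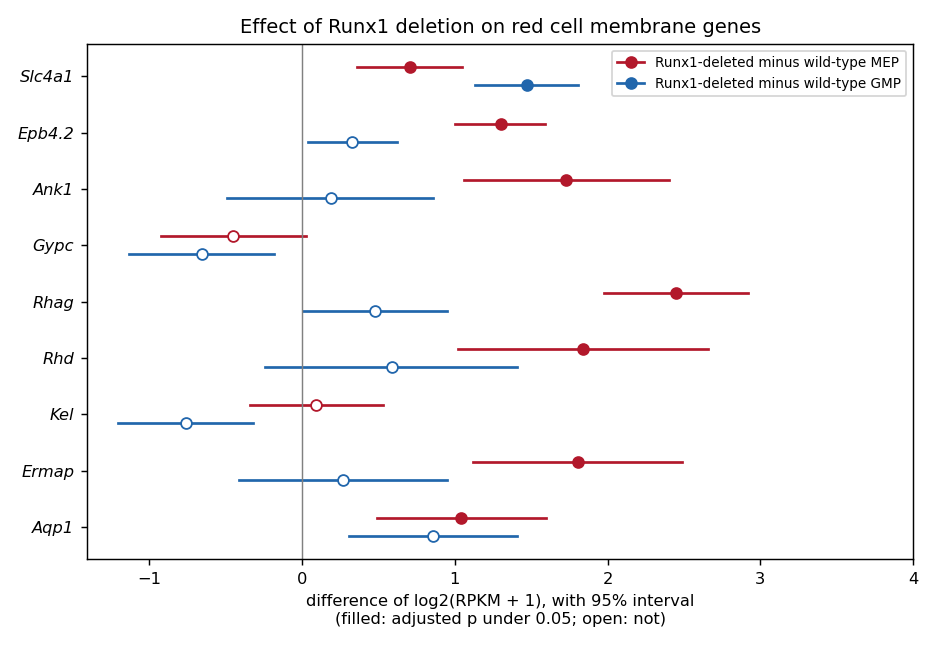
Difference of log2(RPKM + 1) between Runx1-deleted and wild-type cells for the 9 genes, in MEP (red) and in GMP (blue), with 95% intervals from limma; filled points passed an adjusted p of 0.05. In MEP 7 genes pass on the higher side, with Rhag farthest at 2.45; in GMP only Slc4a1 does, at 1.47.

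The effects in MEP and GMP were compared directly. The difference of the differences passed the test for 2 of the 9 genes, Rhag (1.97 ± 0.30, adjusted p = 0.00912) and Epb4.2 (0.97 ± 0.19, adjusted p = 0.0277), both larger in MEP, beside 1.74% of all genes tested. These values are on the log2(RPKM + 1) scale, on which low levels are compressed. On the RPKM scale the mean of Rhag was 6.36-fold higher in Runx1-deleted MEP and 6.12-fold higher in Runx1-deleted GMP, and that of Epb4.2 was 5.73-fold higher in Runx1-deleted MEP and 13.1-fold higher in Runx1-deleted GMP, with wild-type GMP at 0 and 6 reads. With a pseudocount of 0.1 neither passed (Rhag 0.90, adjusted p = 0.664; range over its alternatives 0.00345 to 0.664; Epb4.2 0.61, adjusted p = 0.928; range 0.0101 to 0.928). Slc4a1 had a difference of -0.77 ± 0.22 (adjusted p = 0.15), so a larger effect in GMP was not established for it. The remaining values were 1.55 for Ank1, 1.54 for Ermap, 1.25 for Rhd, 0.86 for Kel, 0.20 for Gypc and 0.19 for Aqp1, none past the test. Rhag no longer passed without wild-type GMP replicate 2 (1.92) or Runx1-deleted GMP replicate 1 (1.88). Epb4.2 no longer passed without either GMP library of either genotype, either Runx1-deleted MEP library or XMP replicate 2 (0.89 to 1.04). It passed the filter only through its level in Runx1-deleted MEP. Without wild-type MEP replicate 2 Ank1 (1.91) and Ermap (1.93) passed as well, and without wild-type MEP replicate 1 Slc4a1 (-0.93) did.

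XMP were set against both other Runx1-deleted gates. Against Runx1-deleted MEP, 7 of the 9 genes were lower in XMP, Slc4a1 was higher, and Gypc did not pass, beside 7.74% of all genes tested. The median of the 9 was -2.58, beside 0.05 over all genes. Ermap differed most, by -3.90 ± 0.31 (adjusted p = 1.09e-04), a mean of 6.42 ± 2.74 RPKM in XMP and 106 ± 10.3 RPKM in Runx1-deleted MEP. Rhd followed with -3.50 ± 0.37, Rhag with -2.76 ± 0.21, Ank1 with -2.71 ± 0.30 and Kel with -2.58 ± 0.20 (adjusted p of 9.53e-05 to 5.99e-04). Means were 8.22-fold (Rhag) to 16.6-fold (Ermap) lower in XMP among these 5. Aqp1 was lower by a smaller step, -1.36 ± 0.25 (adjusted p = 0.00821), and so was Epb4.2, -0.88 ± 0.13 (adjusted p = 0.00294). Epb4.2 passed the filter only through its level in Runx1-deleted MEP, the group in which it was higher here. Slc4a1 was higher in XMP by 1.47 ± 0.16 (adjusted p = 4.49e-04), with means of 4.34 ± 0.223 RPKM in XMP and 0.934 ± 0.0969 RPKM in Runx1-deleted MEP. Gypc differed by -0.08 ± 0.22 (95% interval -0.55 to 0.39, adjusted p = 0.909). These calls held in every alternative that tested them, apart from that of Aqp1, which did not pass without XMP replicate 2 (-1.17).

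Erythroid regulators were set beside these genes. Of 12 regulators tested none was called higher and 2 were called lower in XMP than in Runx1-deleted MEP, beside 7.74% of all genes called, with a median of 0.08, beside 0.05 over all genes. Chosen after its values were seen, Klf1, an activator of red cell genes, had 33 and 25.6 RPKM in XMP and 153 and 112 RPKM in Runx1-deleted MEP, while Gata1 had 123 and 105 RPKM in XMP and 127 and 120 RPKM in Runx1-deleted MEP. The groups were apart for Klf1 and overlapped for Gata1. The part of these regulators in the levels of the 9 genes was not tested. Of 5 maturing red cell markers 4 were called higher and none lower in XMP than in Runx1-deleted MEP, and of 10 membrane skeleton genes 1 was called higher and 1 lower. Of 18 further surface antigens and transporters 2 were called higher and 6 lower.

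Against Runx1-deleted GMP, 6 of the 9 genes were higher in XMP and none was lower, beside 19.7% of all genes tested, with a median of 0.87, beside 0.05 over all genes. Aqp1 led with 4.80 ± 0.25 (adjusted p = 2.64e-07), a mean of 241 ± 44.8 RPKM in XMP and 7.86 ± 3.04 RPKM in Runx1-deleted GMP, or 30.6-fold. Ermap was higher by 2.12 ± 0.31 (adjusted p = 4.34e-04) and Rhag by 1.62 ± 0.21 (adjusted p = 2.05e-04). Kel (0.87 ± 0.20, adjusted p = 0.0085), Slc4a1 (0.86 ± 0.16, adjusted p = 0.00202) and Epb4.2 (0.58 ± 0.13, adjusted p = 0.00877) followed. Rhd (0.93 ± 0.37, adjusted p = 0.123), Ank1 (0.84 ± 0.30, adjusted p = 0.0839) and Gypc (0.64 ± 0.22, adjusted p = 0.0633) did not pass. Both XMP libraries lay above both Runx1-deleted GMP libraries for all 9 genes. The number of all genes for which this held was not counted, and with 2 libraries a side unchanged genes can be apart too. Nothing is therefore concluded from it. Epb4.2 no longer passed without Runx1-deleted GMP replicate 1 (0.56) or 2 (0.61) or XMP replicate 1 (0.54), and Kel without either Runx1-deleted GMP library (0.85 and 0.90) or XMP replicate 2 (0.83). The 3 genes that did not pass turned on the XMP libraries. Without XMP replicate 1 the differences were 0.24 for Rhd, 0.36 for Gypc and 0.53 for Ank1, and without XMP replicate 2 they were 1.61, 0.91 and 1.14, with Rhd and Gypc past the test. Ank1 passed without wild-type MEP replicate 1 or replicate 2 (0.84) and in 4 other alternatives, quantile normalization, group weights, a fit of only the groups compared and a pseudocount of 0.1 (1.82, adjusted p = 0.0144). Gypc also passed with the replicate number (adjusted p = 0.0444) or the library number series (adjusted p = 0.0121) as a block, and with group weights as did Rhd (adjusted p = 0.0315). With a pseudocount of 0.1 Slc4a1 did not pass (1.12).

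**Figure D3:**
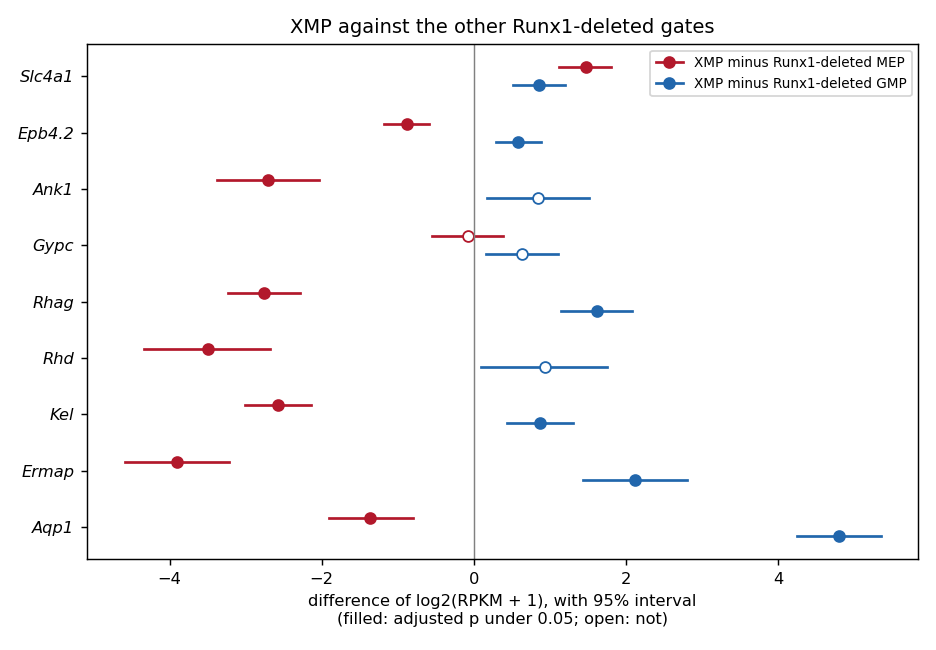
Difference of log2(RPKM + 1) between XMP and Runx1-deleted MEP (red) and between XMP and Runx1-deleted GMP (blue) for the 9 genes, with 95% intervals from limma; filled points passed an adjusted p of 0.05. Slc4a1 passes to the right of 0 in both (1.47 and 0.86), while 7 genes pass to the left of 0 against MEP, Ermap farthest at -3.90. Gypc, at -0.08 against MEP, does not pass.

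The 2 XMP libraries differed from each other for some of these genes and not for others. Rhd was higher in replicate 1 (lane 5) than in replicate 2 (lane 4) by 1.37 on the log2 scale, a larger gap than that of 99.9% of all genes tested, whose median gap was 0.18. Ermap (0.77), Ank1 (0.61), Gypc (0.56), Rhag (0.48) and Aqp1 (0.38) were also higher in replicate 1. Slc4a1 (0.09), Epb4.2 (0.08) and Kel (-0.09) differed by less than the median gap. Replicate 1 also had the higher summed levels of the maturing red cell markers (1590 RPKM against 793 RPKM) and of 6 macrophage markers of erythroblastic islands (18.9 RPKM against 6.61 RPKM), and their part in these gaps was not tested. Of the other groups, Runx1-deleted MEP had gaps of 0.78 for Ank1 and 0.68 for Rhd, again with replicate 1 higher, Runx1-deleted GMP had gaps of -0.71 for Aqp1, above that of 99.2% of all genes, and -0.50 for Ermap, above that of 97.5%, with replicate 2 higher, and wild-type MEP had gaps of -0.78 for Ermap and -0.72 for Ank1, with replicate 2 higher. Ermap and Ank1 are long genes, and the part of the length trend of wild-type MEP replicate 1 in these gaps was not tested.

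MEP and GMP were also compared within each genotype. In Runx1-deleted cells 8 of the 9 genes were higher in MEP and Slc4a1 was lower (-0.61 ± 0.16, adjusted p = 0.0138), beside 24.5% of all genes tested. The median was 3.55, beside 0.05 over all genes. Aqp1 (6.16 ± 0.25, 77.9-fold), Ermap (6.03 ± 0.31, 159-fold), Rhd (4.43 ± 0.37, 47.4-fold), Rhag (4.37 ± 0.21, 59.2-fold), Ank1 (3.55 ± 0.30, 48.1-fold) and Kel (3.45 ± 0.20, 46.0-fold) were far apart, and Epb4.2 (1.47 ± 0.13) and Gypc (0.72 ± 0.22, adjusted p = 0.0317) less so. Here too Epb4.2 passed the filter only through its level in Runx1-deleted MEP. In wild-type cells 7 of the 9 were higher in MEP, beside 21.6% of all genes tested, with a median of 2.40, beside 0.06. They were Aqp1 (5.97 ± 0.25, adjusted p = 3.85e-08), Ermap (4.49 ± 0.31), Rhd (3.18 ± 0.37), Kel (2.59 ± 0.20), Rhag (2.40 ± 0.21), Ank1 (2.0 ± 0.30) and Epb4.2 (0.50 ± 0.13, adjusted p = 0.0199). Slc4a1 (0.16 ± 0.16, adjusted p = 0.56) and Gypc (0.51 ± 0.22, adjusted p = 0.127) did not pass, although Gypc did with the library number series as a block (adjusted p = 0.0306). Slc4a1 was thus the only one of the 9 called lower in MEP than in GMP, and in Runx1-deleted cells alone, a call that was lost without Runx1-deleted GMP replicate 1 (-0.55) or Runx1-deleted MEP replicate 1 (-0.56) or 2 (-0.66) and with quantile normalization (-0.40) or a pseudocount of 0.1 (-0.99). Gypc in Runx1-deleted cells was lost without either Runx1-deleted GMP library (0.62 and 0.81) or Runx1-deleted MEP replicate 1 (0.56) and without a filter, and Epb4.2 in wild-type cells without wild-type GMP replicate 2 (0.47), with group weights and in a fit of only the groups compared.

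**Figure D4:**
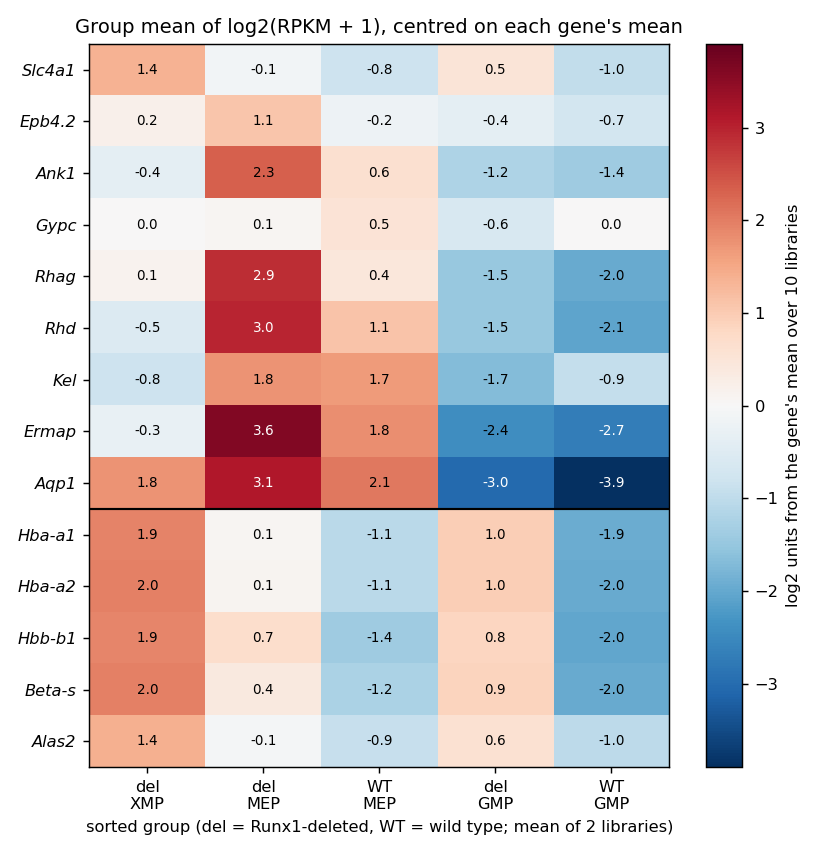
Mean of log2(RPKM + 1) per group (2 libraries each), centred on each gene's mean over the 10 libraries, for the 9 red cell membrane genes above the line and 5 maturing red cell markers below it, in columns for XMP, Runx1-deleted and wild-type MEP, and Runx1-deleted and wild-type GMP. Slc4a1 is highest in XMP (1.36) and second in Runx1-deleted GMP (0.51), as are the 4 globin genes and Alas2. Rhag, Rhd, Ank1, Ermap, Aqp1, Kel and Epb4.2 peak in Runx1-deleted MEP (1.09 to 3.61) and Gypc in wild-type MEP (0.53).

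Likeness among the 9 was measured as the root mean square difference of centred log2 profiles over the 10 libraries, a description in which libraries of 1 group share their source. Ank1 and Rhag were closest (0.47), followed by Rhag and Rhd (0.49) and Ank1 and Rhd (0.53). Slc4a1 lay nearest to Epb4.2 (0.89) and 1.11 to 2.84 from the other 7. Among 7782 further genes with a mean of at least 5 RPKM, Cldn13 was nearest to both Rhag (0.38) and Rhd (0.36) and second for Ank1 (0.39) after Spire1 (0.28). Ermap was nearest to Slc38a5 (0.51), Kel to Tnfaip2 (0.38), Aqp1 to Gm15915 (0.70) and Epb4.2 to Ap1b1 (0.18). Slc4a1 was nearest to Capn5 and Capn2 (0.27 each) and P2rx1 (0.29), and Gypc to 1700029F09Rik and Fam18b (0.13 each). Small differences are easier to reach for genes whose profile varies little, and the root mean square of the profile itself was 0.41 for Gypc and 2.89 for Aqp1. The mean profile of the 9 lay nearest to Spire1 (0.19), Cyth3 (0.30), St3gal5 (0.39), Epor (0.39) and Rab4a (0.40).

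Other genes of the red cell membrane were read from lists. Of 11 membrane skeleton genes 10 were tested, and 3 were higher and none lower in Runx1-deleted than in wild-type MEP, with a median of 0.33. Over all genes tested 8% were called in MEP and 5.22% in GMP, with medians of 0.03 and 0.05, against which the counts and medians of each list below are to be read. Beta-spectrin, Spnb1, had 4.38 and 2.67 RPKM in Runx1-deleted MEP and 0.523 and 1.31 RPKM in wild-type MEP (1.24 ± 0.25, adjusted p = 0.0114). Beta-adducin, Add2, had 14.5 and 7.60 RPKM in Runx1-deleted MEP and 2.67 and 5.65 RPKM in wild-type MEP (1.22 ± 0.33, adjusted p = 0.0446). Alpha-adducin, Add1 (0.67 ± 0.17, adjusted p = 0.0343), also passed. Beta-spectrin, which ankyrin ties to band 3, thus rose beside Ank1. In GMP none of the 10 was called, with a median of 0.13.

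Of 21 further surface antigens and transporters 18 were tested. In MEP 5 were higher with Runx1 deletion and none was lower (median 0.54). They were Cd59a (1.68 ± 0.23, adjusted p = 9.71e-04) and Cd55 (0.88 ± 0.18, adjusted p = 0.0141), which shield cells from complement, the transferrin receptor Tfrc (1.63 ± 0.36, adjusted p = 0.0198), the channel Aqp9 (1.06 ± 0.26, adjusted p = 0.0316), and Xk (0.75 ± 0.20, adjusted p = 0.0426), the partner of Kell on human red cells. Xk had 13.8 and 12.7 RPKM in Runx1-deleted MEP and 6.26 and 8.94 RPKM in wild-type MEP, while Kel overlapped between the genotypes. In GMP 3 were higher and none was lower (median 0.16), namely the urea transporter Slc14a1 (1.32 ± 0.24, adjusted p = 0.00741), Cd59a (1.04 ± 0.23, adjusted p = 0.0221) and Cd55 (0.76 ± 0.18, adjusted p = 0.0391). Slc14a1 had 9.43 and 11.4 RPKM in Runx1-deleted GMP and 2.94 and 4.30 RPKM in wild-type GMP.

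Among 12 erythroid regulators 2 were higher in Runx1-deleted MEP and none was lower (median 0.31). These were the erythropoietin receptor Epor, with 13.8 and 12.7 RPKM in Runx1-deleted MEP and 8.14 and 8.13 RPKM in wild-type MEP (0.64 ± 0.16, adjusted p = 0.0341), and Trim10 (0.81 ± 0.16, adjusted p = 0.00987). In GMP Sox6, a regulator of globin genes, had 7.85 and 5.67 RPKM in Runx1-deleted cells and 0.736 and 0.599 RPKM in wild-type cells (2.20 ± 0.32, adjusted p = 0.00211), and Trim10 was higher too (0.76 ± 0.16, adjusted p = 0.0165), with none lower among the 12 (median 0.30). Gata1, Klf1 and the other 7 regulators passed in neither gate. No difference of the MEP and GMP effects passed for any gene of the 3 lists.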

How the data were processed

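RNA of 10 libraries was measured by sequencing, and the deposited table gives RPKM for 23240 genes, 1 column per library, as the authors computed it. The submitters' processing notes name mm9 as genome build, while the sources used here give no aligner, counter or annotation. Libraries were made with a TruSeq or a NEBNext kit, per the labels' protocols, and the kit of each library is not recorded. The filter kept 10905 genes reaching 1 RPKM in 2 or more libraries, among them all 9 reported, and can favour genes high in 1 group. A linear model of log2(RPKM + 1) was made with limma 3.58.1 in R 4.3.3 (eBayes with trend, 1 mean per group, 5 residual degrees of freedom). Adjusted p-values are Benjamini-Hochberg over all genes tested in 2-sided tests, and genes under 0.05 were called. Reads were worked back from the RPKM values, whole within 0.01 read for 19336 genes, the other 3904 being at 0. All 9 genes were named in every comparison, of the lists genes called in MEP or GMP with groups apart (Klf1, Gata1 and single markers are exceptions), and neighbours by the smallest root mean square difference. The genes and lists were chosen with earlier results of these data known. List symbols were matched through RefSeq synonyms (Sptb to Spnb1, Hbb-bs to Beta-s), and some genes of the lists are not reported here. Fits were tested on simulated data, and 22 alternatives were run.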

Additional observations from a re-analysis of the deposited data

Results flagged for a closer look

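Rhag and Epb4.2 are listed because the effect of Runx1 deletion differed between MEP and GMP by a test of the difference itself, an interaction contrast in limma. For Rhag the effect was 1.97 log2 units larger in MEP (adjusted p = 0.00912), with both Runx1-deleted libraries above both wild-type ones in each gate. For Epb4.2 it was 0.97 log2 units larger in MEP (adjusted p = 0.0277), again with the genotypes apart in each gate. Both values are on the log2(RPKM + 1) scale. The ratios of mean RPKM were 6.36 in MEP and 6.12 in GMP for Rhag, and 5.73 in MEP and 13.1 in GMP for Epb4.2, and neither difference passed with a pseudocount of 0.1. Epb4.2 reached the 1 RPKM of the filter only in Runx1-deleted MEP.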

How the results depend on the processing

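Of 1338 values of single genes under alternatives, 1237 kept direction and side of the threshold, 57 lost and 35 gained a call, and 9 turned direction. Many alternatives, such as group weights or leaving out a library of a group not compared, change the spread but not the difference. Direction could not turn in those, so the share kept overstates how far the results were tried. In the MEP comparison 7 of 9 genes were called. The count was 4 of 6 with a mean of at least 5 RPKM, 4 in a fit of only the compared groups, and 2 with group weights or with lanes 4 and 5 alone. Leaving out single libraries gave 4 to 7. In the GMP comparison 1 was called, against 2 with quantile normalization, with libraries centred on their median or with the library number series as a block, 3 with group weights or with the length trend removed, 4 with a pseudocount of 0.1, 5 in a fit of only the compared groups, and 0 with a mean of at least 5 RPKM, which drops Slc4a1. Single libraries left out gave 1 to 2. For the difference of the effects 2 were called, against 1 with group weights, without trend or with a mean of at least 5 RPKM, 0 with a pseudocount of 0.1, and 0 to 4 with single libraries left out. In XMP against Runx1-deleted MEP 8 were called, against 5 of 6 with a mean of at least 5 RPKM. That filter drops Slc4a1, Epb4.2 and Ank1, and no call of the other 6 genes changed under it. The cause of the other shifts was not tested. Directions turned for Ank1 in GMP with the length trend removed (-0.21) and for Kel in MEP with lanes 4 and 5 alone (-0.06), neither called. Without single libraries Kel in MEP ran from -0.07 to 0.26, Aqp1 in the difference of effects from -0.17 to 0.54, Gypc in XMP against Runx1-deleted MEP from -0.36 to 0.20, and Slc4a1 in wild-type MEP against GMP from -0.00 to 0.32. Over all genes, quantile normalization split the GMP calls into 306 higher and 306 lower, where the main scaling gave 343 and 226, and the XMP against Runx1-deleted MEP calls into 626 and 526, where it gave 560 and 284. Same-numbered replicates deviated together in some pairs of groups but not in most (correlations -0.47 to 0.78, median -0.11, over 0.1 in 3 of 10 pairs of groups). The library number series (25 to 29 and 30 to 34, 1 library of each group in each) gave -0.15 to 0.78, median 0.32, over 0.1 in 6 of 10, so neither numbering paired every group. With that series as a block Gypc also passed in GMP (-0.65), in XMP against Runx1-deleted GMP (0.64) and in wild-type MEP against GMP (0.51). With the replicate block the counts were 7 in MEP, 1 in GMP and 2 for the difference, and no call of the 9 genes changed with the replicate number but Gypc in XMP against Runx1-deleted GMP (0.64), which passed. Reads limit the lowest levels, with 0 to 13 reads for Slc4a1, Epb4.2, Rhag and Rhd in wild-type GMP.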
